A study of Mus musculus with 4 samples.

Results

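The genes described here are 9 receptors for extracellular nucleotides and adenosine and 1 enzyme that degrades extracellular nucleotides, in mouse plasmacytoid dendritic cells (pDCs) that had or had not switched on a reporter of the chemokine gene Cxcl10. They were taken by symbol from a count table of 27179 genes, and all 10 were found: P2rx4, P2rx7, P2ry6, P2ry10, P2ry12, P2ry13, P2ry14, Adora2a, Adora2b and Entpd1. All 10 also passed the filter on low counts. The pDCs came from bone marrow precursors of C57BL/6 mice, kept in culture with Flt3 ligand, which supports dendritic cell growth, for 8 days. All were then exposed for 24 h to 1 µg/ml of imiquimod, a small-molecule agonist of the RNA sensor TLR7, and sorted with SiglecH and CD11b; the level of CD11b that was kept and the position of the BFP gate are not clear from the labels. The BFP-positive group (n = 2 libraries) is the sorted fraction that carried the blue fluorescent reporter, and the BFP-negative group (n = 2 libraries) is the fraction without it. Both groups share the strain, culture and stimulation, and no unstimulated cells were analysed here. Rises and falls given below are differences between the 2 sorted fractions, not changes followed over time. Nothing in the labels says whether the 2 libraries of a group came from separate mice or cultures, so p-values measure only the spread between these libraries, which may be technical. The titles give each replicate number a code that its BFP-negative and BFP-positive library share, and do not say what the code stands for.

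Cells release ATP, UTP, ADP and nucleotide sugars when they are stressed, dying or activated, and neighbouring cells read them through 2 receptor classes. P2X receptors are cation channels opened by ATP, and P2Y receptors are G protein-coupled receptors with different nucleotide preferences. Entpd1 (CD39) strips phosphates from extracellular ATP and ADP to give AMP, Nt5e (CD73) turns AMP into adenosine, and adenosine acts on Adora receptors, of which the Adora2a and Adora2b products raise cyclic AMP. In dendritic cells, nucleotides are known as danger signals and adenosine is known to restrain inflammatory output.

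The 5 receptors that were higher in BFP-positive cells (P2rx4, P2ry6, P2ry10, P2ry14, Adora2a) and the enzyme that was lower (Entpd1) map to 6 chromosomes of GRCm38, by the RefSeq gene table. P2rx4 (Entrez gene 18438) spans chromosome 5 from 122707518 to 122729739, next to P2rx7 (Entrez gene 18439, 122643927 to 122692336). P2ry6 (Entrez gene 233571) lies on chromosome 7 from 100937630 to 100975498, and P2ry10 (Entrez gene 78826) on chromosome X from 107088492 to 107104974. Adora2a (Entrez gene 11540) is on chromosome 10 from 75316877 to 75334792, Adora2b (Entrez gene 11541) on chromosome 11 from 62248984 to 62266452, and Entpd1 (Entrez gene 12495) on chromosome 19 from 40612366 to 40741602. P2ry14 (Entrez gene 140795, 59114623 to 59153492), P2ry13 (Entrez gene 74191, 59207892 to 59210882) and P2ry12 (Entrez gene 70839, 59216271 to 59262985) sit close together on the minus strand of chromosome 3. All 3 lie within the span of Med12l (59005419 to 59318446), which is on the plus strand.

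RefSeq promoter windows of GRCm38.p6, which run from 250 bases before to 50 bases after an annotated start, were found for 8 of the 10 genes, in 14 windows; none was found for P2ry6 and Adora2a. For 4 genes that changed, 1 window each is shown, the first listed where a gene has several (P2ry14 has 4, P2ry10 and Entpd1 have 2 each), without the bases after the start, to show which known motif letters stand before them. Capitals mark matches, on either strand, to TGANTCA and CANCTG, where N is any base. TGANTCA is a loose form of the site of AP-1 factors, and not every match to it is such a site. CANCTG is an E-box, the core bound by E proteins such as Tcf4, the pDC lineage factor. The P2rx4 bases are chr5:122707294-122707543 on the plus strand, those of P2ry10 chrX:107088242-107088491 on the plus strand, those of P2ry14 chr3:59153493-59153742 on the minus strand, and those of Entpd1 chr19:40612116-40612365 on the plus strand.
P2rx4: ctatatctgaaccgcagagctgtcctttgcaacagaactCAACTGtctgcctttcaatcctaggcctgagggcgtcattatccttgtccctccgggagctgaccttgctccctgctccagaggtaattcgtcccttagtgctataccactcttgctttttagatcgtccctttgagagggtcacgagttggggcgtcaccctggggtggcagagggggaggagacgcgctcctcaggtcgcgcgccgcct
P2ry10: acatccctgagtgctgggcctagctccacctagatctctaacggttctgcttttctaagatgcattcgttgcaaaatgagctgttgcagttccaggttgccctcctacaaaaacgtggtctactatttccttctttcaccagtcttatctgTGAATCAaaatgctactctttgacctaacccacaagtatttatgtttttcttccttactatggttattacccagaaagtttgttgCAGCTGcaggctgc
P2ry14: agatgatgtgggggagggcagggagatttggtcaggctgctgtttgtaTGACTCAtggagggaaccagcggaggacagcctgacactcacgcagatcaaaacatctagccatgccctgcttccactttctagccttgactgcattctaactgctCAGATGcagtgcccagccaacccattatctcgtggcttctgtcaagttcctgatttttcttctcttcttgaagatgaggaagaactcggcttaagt
Entpd1: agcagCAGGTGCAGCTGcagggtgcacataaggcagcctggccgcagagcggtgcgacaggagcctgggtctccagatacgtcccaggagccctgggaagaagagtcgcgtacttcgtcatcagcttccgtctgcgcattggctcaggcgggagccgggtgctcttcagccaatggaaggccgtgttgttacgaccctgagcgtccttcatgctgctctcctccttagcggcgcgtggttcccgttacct
The AP-1 letters start 99 bases before the P2ry10 start (TGAATCA) and 202 bases before the P2ry14 start (TGACTCA). They are also in a P2rx7 window and in another P2ry14 window, and 7.81% of all 32851 windows hold them. The E-box letters are common, in 51.4% of all windows. A longer element of interferon-response genes, GAAA and GAAA around any 2 bases (3.44% of all windows), and an NF-kB form, GGG and TTTCC around any 2 bases (1.63%), had no match in the 14 windows. No matches in the windows shown share bases, and the 2 E-boxes of Entpd1 follow each other directly. A match is only a match of letters.

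Library totals ran from 11868254 to 12570117 counts, and a single count stood for 0.0789 to 0.0858 CPM (counts relative to library size, adjusted by TMM factors of 0.973 to 1.04). Cxcl10, whose reporter was sorted, had 3 and 19 counts in the BFP-negative and 149 and 154 in the BFP-positive libraries, which checks the labels. All 12 listed pDC markers were measured, Siglech and Bst2 among them; 2 were called higher and 4 lower in BFP-positive cells, with a summed level of 24197 and 28788 CPM in BFP-negative and 20178 and 19263 CPM in BFP-positive libraries. Of 13 listed conventional dendritic cell markers, 12 were tested, 3 were called higher and 1 lower, with sums of 389 and 480 against 604 and 739 CPM. Of 13 monocyte and macrophage markers, 10 were tested, 6 were higher and 2 lower, with sums of 652 and 786 against 1392 and 1541 CPM. Mertk and C1qa had no count in any library, while Csf1r had 3 and 0 counts in BFP-negative and 265 and 398 in BFP-positive libraries. Of 7 B cell markers 5 were tested and 3 were lower (163 and 159 against 112 and 121 CPM). The summed T and NK cell markers were at 1516 and 1435 against 1049 and 1124 CPM, nearly all from Cd8a, with 1 of 3 tested members lower and Cd3g and Eomes at 0. The granulocyte and mast cell markers, none of 7 tested called, were at 28.5 and 87.5 against 32.1 and 63.3 CPM, with Elane at 0. For comparison with these marker counts, 7.6% of all tested genes were called higher and 3.51% lower. Several of the receptors described here are also known from these other cell types. The part of such cells in the results was not tested, and bulk RNA cannot tell more cells of a type from more RNA per cell.

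Of the 10 genes, 5 rose and 1 fell in BFP-positive cells by the quasi-likelihood test of edgeR, at a Benjamini-Hochberg adjusted p under 0.05. Over all 11706 genes tested, 11.1% were called, 7.6% as higher and 3.51% as lower. The median log2 fold change was 0.86 over the 10 genes and -0.02 over all tested genes. In 8 of the 10 genes the groups did not overlap, with the BFP-positive libraries above in 7 and below in 1; over all tested genes 54.2% did not overlap, 27.1% in each direction. Because these 10 genes were chosen with earlier results of the same libraries known, the counts describe them and are no test of the family. Without BFP-positive replicate 2 the number called higher was 3 and the number called lower remained 1.

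**Figure D1:**
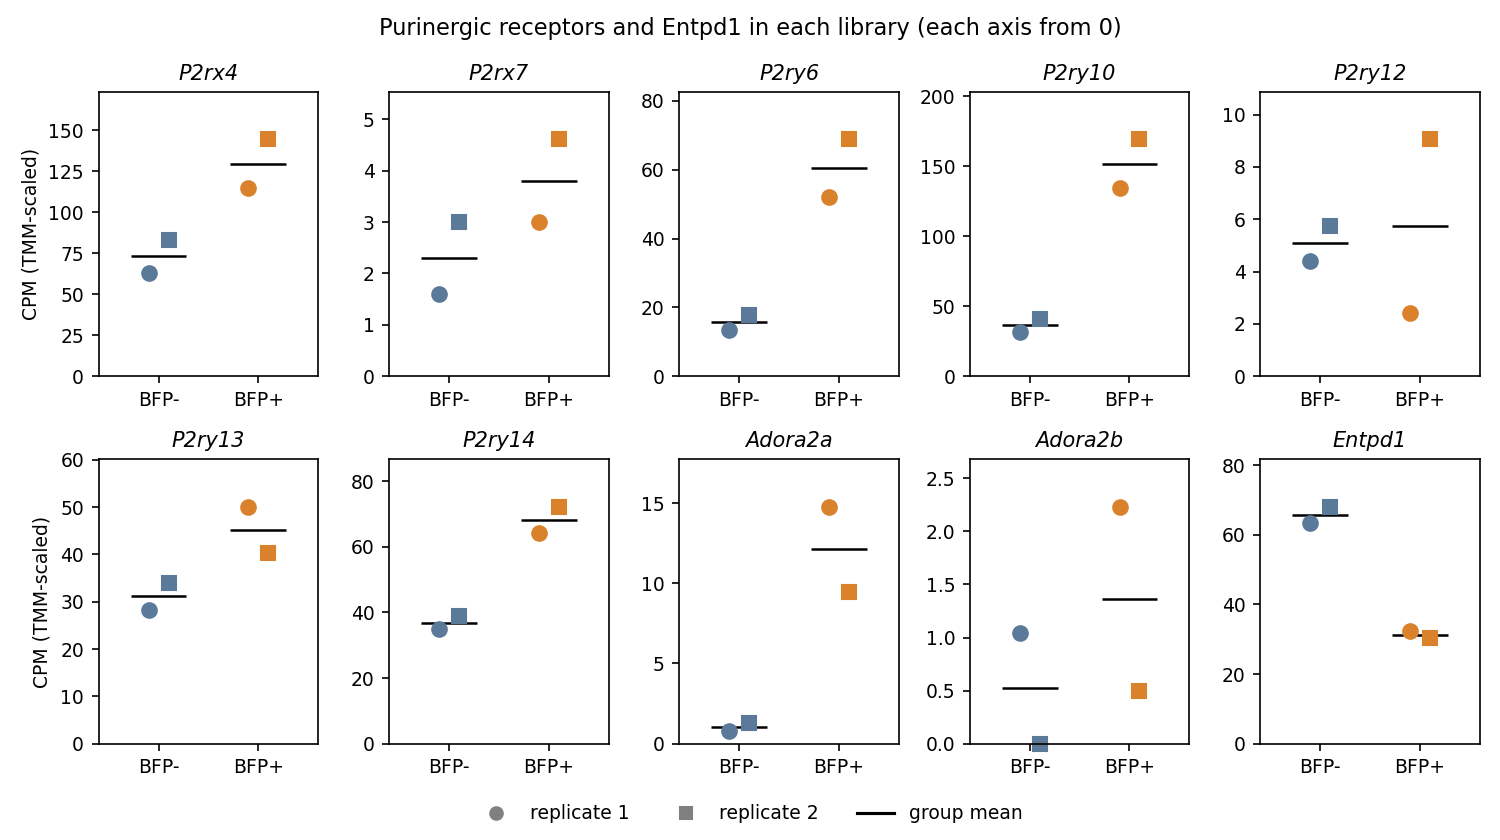
Level of each gene in each library, in TMM-scaled CPM, for BFP-negative (blue) and BFP-positive (orange) cells; circles are replicate 1, squares replicate 2, lines the group means. P2ry10 goes from 31.9 and 40.8 to 134 and 169 CPM and Entpd1 from 63.3 and 68.1 to 32.4 and 30.3 CPM, while the P2ry12 and Adora2b points overlap between groups.

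Among the channels, P2rx4 was the abundant one and was higher in BFP-positive cells. P2rx4 is an ATP-gated channel that is found on lysosomes as well as at the surface. It was at 62.8 and 83.0 CPM in the BFP-negative and 115 and 144 CPM in the BFP-positive libraries. Both BFP-positive libraries stood above both BFP-negative ones, and the gap was larger than the spread within either group. The means were 72.9 ± 14.3 and 129 ± 21.0 CPM (SD, n = 2 each), a 1.77-fold rise (edgeR log2 fold change 0.83 ± 0.19 SE, adjusted p = 0.0199). The call was lost without BFP-negative replicate 1 (adjusted p = 0.0603) and without BFP-positive replicate 2 (adjusted p = 0.114), with the direction kept. The RefSeq span of Camkk2, on the opposite strand, reaches into P2rx4, although in GENCODE M21 they share no exon bases; Camkk2 had means of 7.80 ± 0.234 and 16.1 ± 3.15 CPM, missed the threshold (adjusted p = 0.0809 in edgeR) and was far lower in counts than P2rx4.

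P2rx7, the channel that needs high ATP and is known to trigger the inflammasome, was scarce. Its counts were 20 and 38 in BFP-negative and 35 and 56 in BFP-positive libraries, or 1.61 and 2.997 against 3.004 and 4.61 CPM. The higher BFP-negative and the lower BFP-positive library were almost level. The edgeR log2 fold change of 0.72 ± 0.68 SE had a 95% interval of -0.80 to 2.25 (adjusted p = 0.585 in edgeR), and that interval holds falls as well as rises.

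Among the P2Y receptors, P2ry10 and P2ry6 differed most. P2ry10 encodes a receptor of lymphoid and dendritic cells that is known to respond to lysophosphatidylserine and related lipids rather than to nucleotides, although it is named with the P2Y family. It was at 31.9 and 40.8 CPM in the BFP-negative and at 134 and 169 CPM in the BFP-positive libraries. The groups lay far apart, with means of 36.3 ± 6.27 and 152 ± 24.8 CPM (SD, n = 2 each). The rise was 4.17-fold (edgeR log2 fold change 2.06 ± 0.19 SE, adjusted p = 0.000127), and it was the smallest p of the 10 genes. Its neighbour and paralogue P2ry10b (Entrez gene 213438, chromosome X, 107148927 to 107173661) moved the same way from a much lower level, 1.69 and 0.868 against 8.32 and 7.82 CPM. P2ry10b was 6.28-fold higher (edgeR log2 fold change 2.65 ± 0.60 SE, adjusted p = 0.0185), a call that was lost when BFP-positive replicate 1 (adjusted p = 0.0709) or replicate 2 (adjusted p = 0.0554) was left out. The sources used here do not say how reads shared by the 2 paralogues were counted, so the split between them is uncertain.

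P2ry6 encodes the receptor for UDP, which is known in phagocytes for promoting uptake and chemokine release. It was at 13.4 and 17.9 CPM in the BFP-negative and 52.0 and 68.8 CPM in the BFP-positive libraries. Every BFP-positive value stood above every BFP-negative one by more than the spread within groups. The rise was 3.86-fold (15.7 ± 3.17 to 60.4 ± 11.9 CPM, edgeR log2 fold change 1.95 ± 0.24 SE, adjusted p = 0.000719). P2ry2, a receptor for ATP and UTP on the same chromosome, was at 5.62 and 4.34 against 2.66 and 6.75 CPM and overlapped between groups (edgeR log2 fold change -0.08 ± 0.59 SE).

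P2ry14, P2ry13 and P2ry12 form the chromosome 3 cluster. P2ry14 responds to UDP-glucose and related UDP sugars, and P2ry13 and P2ry12 to ADP; all 3 couple to inhibitory G proteins. P2ry14 was at 34.9 and 39.0 CPM in BFP-negative and 64.4 and 72.2 CPM in BFP-positive libraries. The libraries of a group were close to each other and the groups were apart. The rise was 1.85-fold (36.9 ± 2.89 to 68.3 ± 5.53 CPM, edgeR log2 fold change 0.89 ± 0.19 SE, adjusted p = 0.0133), and the call was lost without BFP-positive replicate 2 (adjusted p = 0.0738). P2ry13 was at 28.3 and 33.9 against 50.03 and 40.3 CPM. Its groups did not overlap, but the difference did not pass (edgeR log2 fold change 0.54 ± 0.22 SE, 95% interval 0.05 to 1.02, adjusted p = 0.156). P2ry12, best known from platelets and microglia, was at 4.42 and 5.76 against 2.40 and 9.05 CPM. The BFP-positive libraries stood on either side of the BFP-negative ones (edgeR log2 fold change 0.17 ± 0.63 SE, 95% interval -1.24 to 1.58, adjusted p = 0.912), and the sign turned under several other settings.

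Gpr171, a related receptor gene beside P2ry14, was abundant at 592 and 515 CPM in BFP-negative and 533 and 505 CPM in BFP-positive libraries, which overlapped (edgeR log2 fold change -0.09 ± 0.12 SE, 95% interval -0.36 to 0.18). Igsf10 had no count in any library. Med12l, the gene around the cluster, was at 2.03 ± 0.0832 and 1.77 ± 0.409 CPM, far below P2ry14 and P2ry13 in counts. Its exons share 9 bases with P2ry12 and none with P2ry14 or P2ry13 in GENCODE M21. A long non-coding RNA gene that overlaps the P2ry14 start, F630111L10Rik, had 111 and 107 counts in BFP-negative and 137 and 79 in BFP-positive libraries (edgeR log2 fold change 0.07 ± 0.42 SE). The libraries do not mark strand, so its reads and those of P2ry14 cannot be told apart where exons of the 2 overlap. Only the RefSeq spans were seen to overlap, and the exons of F630111L10Rik were not compared. Whether the difference between P2ry14 and its neighbours exceeds their errors was not tested.

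Of the adenosine receptors, Adora2a had the largest fold change among the 10 genes. Adora2a encodes the main high-affinity, cyclic AMP-raising adenosine receptor of leukocytes. It had 10 and 16 counts in the BFP-negative and 172 and 115 in the BFP-positive libraries, or 0.804 and 1.26 against 14.8 and 9.47 CPM. Both BFP-positive libraries were several times above the BFP-negative ones. The rise was 11.6-fold (1.03 ± 0.324 to 12.1 ± 3.74 CPM, edgeR log2 fold change 3.54 ± 0.54 SE, adjusted p = 0.00239), with a 95% interval of 2.34 to 4.73 beside low BFP-negative counts. Adora2b, the low-affinity relative, had 13 and 0 counts in BFP-negative and 26 and 6 in BFP-positive libraries. Those values overlapped (edgeR log2 fold change 1.37 ± 1.41 SE, adjusted p = 0.623), and the 0 allows up to 3 counts, or 0.237 CPM; such floors cover counting error only. No difference in Adora2b was detectable at this depth.

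Entpd1 was the only one of the 10 genes called lower. It was at 63.3 and 68.1 CPM in the BFP-negative and 32.4 and 30.3 CPM in the BFP-positive libraries. The 2 values of each group were nearly equal, and both BFP-negative libraries were above both BFP-positive ones. Entpd1 fell 2.09-fold, from 65.7 ± 3.35 to 31.4 ± 1.52 CPM (edgeR log2 fold change -1.07 ± 0.19 SE, adjusted p = 0.00548). The call held in each of the 13 alternative settings. The next enzyme of the cascade, Nt5e, had 0 counts in all 4 libraries, which allows up to 3 counts, or 0.237 to 0.257 CPM, in a library.

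**Figure D2:**
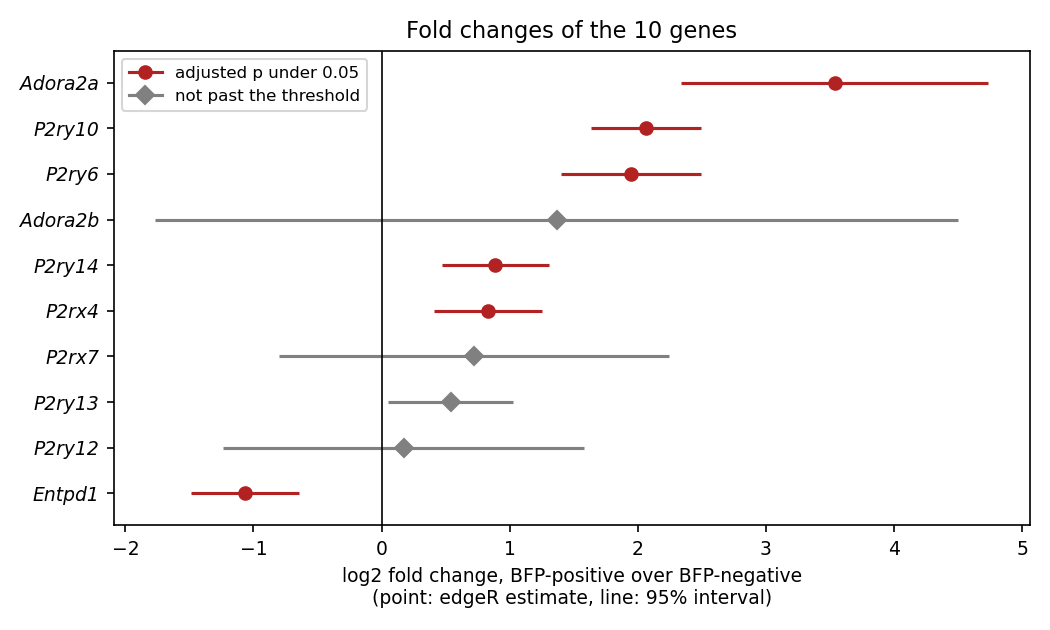
Log2 fold change of each gene, BFP-positive over BFP-negative, from edgeR (points) with its 95% interval (lines); red marks an adjusted p under 0.05. Adora2a stands at 3.54 and Entpd1 at -1.07, and the intervals of Adora2b, P2rx7 and P2ry12 cross 0.

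Levels of different genes were compared on the deposited log2 RPKM, which divides by gene length. In BFP-negative cells the order was P2rx4 (mean log2 RPKM 5.21), P2ry14 (4.39), Entpd1 (3.999), P2ry10 (3.71), P2ry13 (3.65), P2ry6 (3.05), P2ry12 (1.146), P2rx7 (-1.25), Adora2a (-1.27) and Adora2b (-3.71). Neighbours in this order whose libraries overlapped were P2ry10 with P2ry13, P2rx7 with Adora2a, and Adora2a with Adora2b. In BFP-positive cells the order was P2rx4 (5.98), P2ry10 (5.70), P2ry14 (5.21), P2ry6 (4.93), P2ry13 (4.12), Entpd1 (2.87), Adora2a (2.19), P2ry12 (0.97), P2rx7 (-0.56) and Adora2b (-0.81). There, P2rx4 overlapped with P2ry10, Adora2a with P2ry12, and P2rx7 with Adora2b. Entpd1 thus had rank 3 in the BFP-negative and rank 6 in the BFP-positive order, and P2ry10 rank 4 and rank 2. Among all 11706 tested genes, the log2 RPKM of P2rx4 was at or above that of 76.1% and 79.8% of genes in the BFP-negative and 83.9% and 86.6% in the BFP-positive libraries. For Adora2a these shares were 6.14% and 9.20% against 44.7% and 35.9%, so even in BFP-positive cells it was in the lower part of the range.

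**Figure D3:**
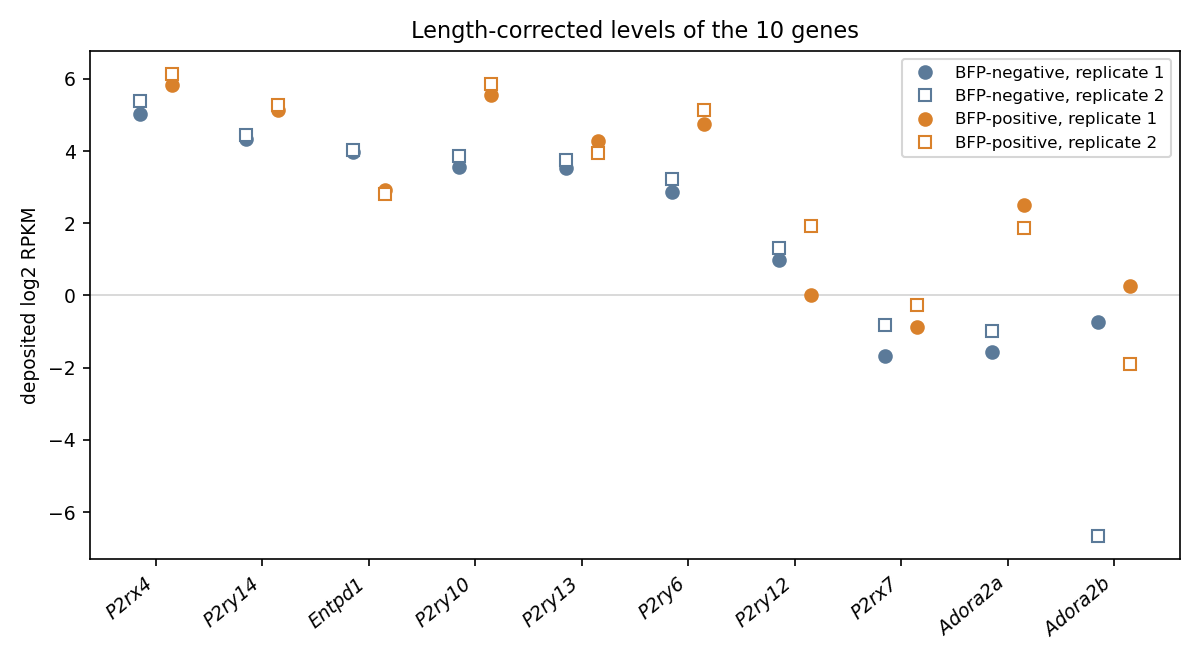
Deposited log2 RPKM of each gene in each library, ordered by the BFP-negative mean; filled circles are replicate 1 and open squares replicate 2. P2rx4 is highest in both groups (5.21 and 5.98), and the lowest point is the BFP-negative Adora2b library with 0 counts, listed at a log2 RPKM of -6.67.

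The genes whose pattern was nearest to a member were found by the distance between log2 CPM values centred over the 4 libraries, among tested genes with a mean of at least 5 CPM. Nearest to P2rx4, the member with the highest mean CPM, were Il17ra (distance 0.0540), Pgap2 (0.0754) and Kbtbd7 (0.0882), with log2 fold changes of 0.85, 0.85 and 0.77. Il17ra and Pgap2 were called higher, and Kbtbd7 was not called (adjusted p = 0.250 in edgeR). Nearest to P2ry10, the member with the smallest p, were Prr5l (0.0823), Fam49a (0.0874) and B4galt4 (0.0927), with log2 fold changes of 2.14, 1.999 and 2.03. With 4 libraries many genes share such a pattern, and this likeness is a description.

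Of 11 other purinergic receptors, 4 had enough counts to be tested and 1, P2ry10b, was higher. The share called higher over all tested genes was 7.6%, and 3.51% were called lower. P2rx2, P2rx3, P2ry1 and P2ry4 had no count in any library. P2rx5, singled out after its values were seen, had 16 and 0 counts in BFP-negative and 80 and 97 in BFP-positive libraries and lay just outside the threshold (edgeR log2 fold change 3.51 ± 1.05 SE, adjusted p = 0.0586). It passed in 7 of the 13 alternative settings, the replicate block among them (adjusted p = 0.0343 in edgeR). Dropping BFP-negative replicate 2 gave a P2rx5 log2 fold change of 2.54. Dropping replicate 1 of that group gave 9.50, fitted against a lone library of 0 counts and so no measure of size. Of 14 genes listed as other ecto-enzymes of nucleotides and NAD, 8 were tested and 1 was higher. That gene was Dpp4, known as CD26, a surface peptidase and not itself an enzyme of nucleotides or NAD. Dpp4 was at 15.3 and 7.57 against 31.2 and 38.4 CPM (edgeR log2 fold change 1.61 ± 0.34 SE, adjusted p = 0.0136). The Dpp4 log2 fold change ran from 1.21 to 2.20 over the 13 alternative settings, and the call was lost in 1 of them, limma on the deposited log2 RPKM (adjusted p = 0.0666).

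Of 10 genes of adenosine uptake and conversion, 7 were tested and 1 was higher, beside 7.6% higher and 3.51% lower over all tested genes. Pnp, the phosphorylase that splits inosine and guanosine, rose 2.05-fold from 106 ± 16.4 to 217 ± 2.75 CPM (adjusted p = 0.00194 in edgeR). Slc29a1, the main equilibrative carrier of adenosine, was at 87.3 and 120 CPM against 56.2 and 74.3 CPM and missed the threshold (edgeR log2 fold change -0.67 ± 0.21 SE, adjusted p = 0.0687), although it passed in 5 of the 13 alternative settings, the replicate block among them (adjusted p = 0.00869 in edgeR). Adk, from the same list, also missed the threshold (edgeR log2 fold change -0.62, adjusted p = 0.0559) and passed in 4 of the 13 alternative settings. Ada, which deaminates adenosine, was at 8.30 ± 3.37 and 6.54 ± 2.04 CPM and its libraries overlapped. Of 11 genes of nucleotide release and loading, 7 were tested and none was called. Panx1, a membrane channel through which ATP leaves cells, was at 55.5 and 65.4 against 89.3 and 83.4 CPM (edgeR log2 fold change 0.51 ± 0.17 SE, adjusted p = 0.0880). With the replicate number as a block Panx1 passed (adjusted p = 0.0475 in edgeR), the only 1 of the 13 alternative settings in which it did.

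Of 8 listed genes downstream of P2rx7, 7 were tested, 4 were higher and none lower, with a median log2 fold change of 1.68. Over all tested genes the median was -0.02, with 7.6% called higher and 3.51% lower. The list was chosen with earlier results of these data known, so its counts are no test of the route. Il1b, the cytokine released through this route, was at 9.48 and 14.2 CPM in BFP-negative and 265 and 287 CPM in BFP-positive libraries (edgeR log2 fold change 4.54 ± 0.21 SE, adjusted p = 2.01e-06). Gsdmd, the pore-forming gasdermin, rose 3.21-fold from 26.6 ± 7.64 to 85.4 ± 22.6 CPM (adjusted p = 0.00243 in edgeR). Casp1, the protease that matures interleukin-1β, rose 2.10-fold from 27.6 ± 10.9 to 58.0 ± 0.605 CPM, a call lost without BFP-negative replicate 2 (adjusted p = 0.0710 in edgeR) and in limma on the deposited log2 RPKM (adjusted p = 0.0587). Pycard, the inflammasome adaptor, rose 1.44-fold from 926 ± 51.3 to 1331 ± 62.3 CPM, a call lost without BFP-positive replicate 1 (adjusted p = 0.104 in edgeR). Nlrp3 (edgeR log2 fold change 1.81, adjusted p = 0.378), Il18 (3.43, adjusted p = 0.114) and Nek7 (-0.09, adjusted p = 0.780) were tested and not called. The P2rx7 channel itself stayed scarce, as given above.

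Of 20 genes of G proteins and cyclic AMP, 18 were tested, 3 were higher and none lower, with a median log2 fold change of 0.12. Over all tested genes, 7.6% were called higher and 3.51% lower. Gnas, from this list, was not called (edgeR log2 fold change -0.07, adjusted p = 0.753). Pde4b, a phosphodiesterase that breaks down cyclic AMP, rose 4.71-fold, from 12.1 and 8.91 to 42.7 and 56.5 CPM (edgeR log2 fold change 2.24 ± 0.27 SE, adjusted p = 0.000556). Arrb2, an arrestin that ends receptor signalling, rose 1.91-fold from 45.6 ± 7.61 to 87.3 ± 0.693 CPM (adjusted p = 0.00951 in edgeR). Gnai2, the main inhibitory G protein subunit of leukocytes, rose 1.37-fold from 771 ± 83.4 to 1056 ± 62.0 CPM (adjusted p = 0.0380 in edgeR). The Gnai2 call held in 8 of the 13 alternative settings. It was lost without BFP-positive replicate 1 (adjusted p = 0.0849 in edgeR), BFP-positive replicate 2 (0.230) or BFP-negative replicate 1 (0.120), with scaling by library totals alone (0.0532) and in limma on the deposited log2 RPKM (0.0863).

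**Figure D4:**
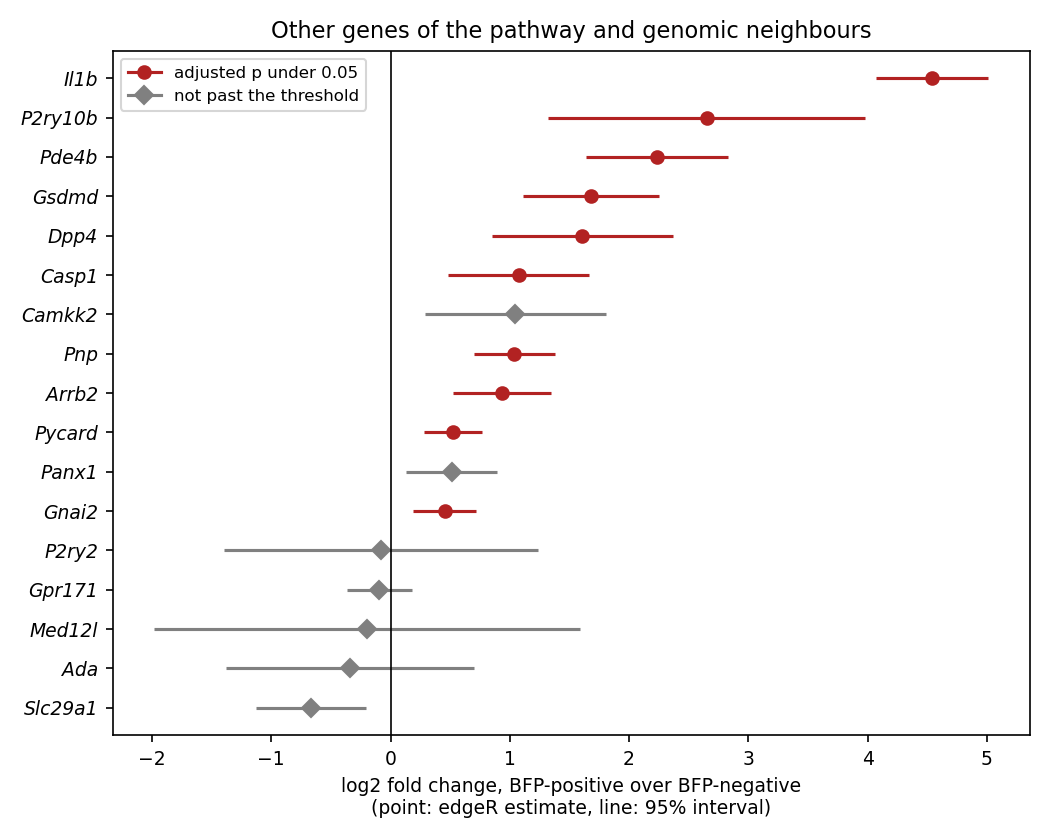
Log2 fold change with its 95% interval for genes around the 10 described: list members past the threshold (red) and some named genes that were not (gray). Il1b stands at 4.54 and Pde4b at 2.24, while Gpr171 lies at -0.09 with an interval from -0.36 to 0.18.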

How the data were processed

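Bulk RNA was purified with a Qiagen kit and made into SMART-Seq libraries, per the labels' protocols; this kit records neither strand nor single molecules. Subread, featureCounts and limma, and GRCm38 and mm10, are in the submitters' processing notes; versions and settings for strand and multiple matches are not given in the sources used here. The authors deposited raw counts per Entrez gene for all 4 libraries (855 rows without a symbol) and, per library, log2 RPKM values. Samples were grouped by the BFP part of their titles, since a population label and the design text disagree on CXCL10 in the BFP-negative cells.

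Counts were filtered with filterByExpr (minimum count 10, minimum total 15), scaled by TMM and tested with edgeR 4.0.16 (R 4.3.3) by the two-sided quasi-likelihood test. The design held the group alone and left 2 residual degrees of freedom and a biological coefficient of variation of 24.7%. The test also borrows spread from the other genes, so no p-value rests on these 2 degrees of freedom alone. P-values were adjusted by Benjamini-Hochberg over all 11706 genes; the standard error is the log2 fold change divided by the square root of F. In simulated counts the fit recovered 44.3% of 2-fold and 68.75% of 4-fold changes, and 2.68% of its calls were false. A gene that was not called may therefore still differ. The simulation changed few genes, equally up and down, with a spread set by expression level alone. The recovered and false shares may thus not hold for the real counts. Replicates were separate libraries by their counts (chi-square per degree of freedom of 18.9 and 14.9). Alternatives used DESeq2 1.42.0, limma 3.58.1, other filters and scalings, and each library left out. The 10 genes and the lists were chosen with earlier results of these data known. Named genes are the 10, list genes past the threshold, direct neighbours in the genome or pathway, and nearest patterns. P2rx5, Adora3, Cd38, Bst1, Adk, Nlrp3, Il18, Nek7, Gnas, F630111L10Rik, Prss34, Mcpt8, Cpa3 and list genes at 0 counts were named with their values seen.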

Additional observations from a re-analysis of the deposited data

How the results depend on the processing

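P2ry6, P2ry10, Adora2a and Entpd1 kept their direction and call in all 13 alternative settings, with log2 fold changes of 1.73 to 2.19, 1.89 to 2.27, 3.18 to 3.92 and -1.13 to -0.99. P2ry14 kept its call in 12 and P2rx4 in 11; the losses are given above. The number of the 10 genes called higher was 5 in all settings that kept every library and 3 to 5 when 1 was left out; 1 was called lower throughout. P2ry12 turned negative in limma-voom (-0.0926), limma on deposited log2 RPKM (-0.18), with the replicate number as a block (-0.0783), without BFP-negative replicate 1 (-0.0038) and without BFP-positive replicate 2 (-1.08), with a range of -1.08 to 0.83 when 1 library was left out and adjusted p of 0.502 or more. Adora2b did so without BFP-positive replicate 1 (-0.0757), with a range of -0.0757 to 7.07, the highest fitted to a lone BFP-negative library of 0 counts. The cause was not tested.

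Over all genes, 559 to 921 were higher and 245 to 408 lower when 1 library was left out, against 890 and 411 with all. By library totals alone, 813 were higher and 574 lower. With the replicate number as a block, 1140 were higher and 760 lower, and the calls of the 10 genes did not change. Over all tested genes, samples with the same number deviated together only weakly (correlation 0.0594). Of the 10 genes, P2rx4, P2rx7, P2ry6, P2ry10, P2ry12 and P2ry14 were higher in replicate 2 than in replicate 1 of both groups. Adora2b was higher in replicate 1 of both groups, while the order of P2ry13, Adora2a and Entpd1 differed between groups. The titles tie each number to a code that both groups share, whose meaning they do not give. Among the pathway lists, other purinergic receptors called higher ranged from 0 to 2 (main 1), other ecto-enzymes from 0 to 2 higher (main 1) and 0 to 1 lower (main 0), adenosine genes from 0 to 2 lower (main 0) and release genes from 0 to 1 higher (main 0). Counts were lowest for Adora2b, P2rx7, P2ry12 and Adora2a, so counting error is largest there; the BFP-positive P2ry12 libraries, at 28 and 110 counts, also lay far apart.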

Other observations

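Prss34, Mcpt8 and Cpa3, genes of basophils and mast cells in the marker list that were singled out after their values were seen, had more counts in the replicate 2 than in the replicate 1 library of each group. Prss34 had 15 and 557 counts in the BFP-negative and 0 and 56 in the BFP-positive libraries, and Mcpt8 had 0 and 77 against 0 and 8. Cpa3 had 0 and 31 against 0 and 39 counts. In replicate 2, Prss34 and Mcpt8 were thus also lower in the BFP-positive than in the BFP-negative library, and Cpa3 was not. Adora3, an adenosine receptor known from mast cells and singled out after its values were seen, had 16 and 33 against 107 and 53 counts and did not pass (edgeR log2 fold change 1.79 ± 0.65 SE, adjusted p = 0.113). Cd38, an ecto-enzyme that consumes NAD, was at 16.4 and 19.5 CPM in BFP-negative and 3.35 and 9.22 CPM in BFP-positive libraries. It did not pass either (edgeR log2 fold change -1.51 ± 0.46 SE, adjusted p = 0.0631). Cd38 did pass in 7 of the 13 alternative settings, the replicate block among them (adjusted p = 0.0155 in edgeR). Bst1, another listed ecto-enzyme, went the other way, with 1 and 4 counts in BFP-negative and 27 and 35 in BFP-positive libraries. Bst1 also missed the threshold (edgeR log2 fold change 3.64 ± 1.06 SE, adjusted p = 0.0547) and passed in 2 of the 13 alternative settings. The Cd38 log2 fold change was -0.96 (adjusted p = 0.218 in edgeR) without BFP-positive replicate 1 and -2.42 (adjusted p = 0.00295) without BFP-positive replicate 2.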
